A study of Mus musculus with 5 samples.

Results

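The proteasome is the cell's main protease for proteins tagged with ubiquitin. Its core particle is a barrel of alpha-subunit and beta-subunit rings, and the catalytic sites lie inside on the beta subunits Psmb5, Psmb6 and Psmb7. A regulatory particle of ATPase and non-ATPase subunits binds the ends of the barrel, recognises tagged proteins, removes the ubiquitin and unfolds the substrate. Interferon-gamma, and constitutively many immune cells, bring in the alternative catalytic subunits Psmb8, Psmb9 and Psmb10, which take the places of Psmb5, Psmb6 and Psmb7 and form the immunoproteasome, known for making peptides for MHC class I presentation.

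The genes described here are those whose symbol begins with Psm, followed by a letter from a to g and a number. All probe sets annotated to exactly 1 such gene were taken, 83 probe sets of 46 genes, out of 20380 probe sets of 12393 genes with 1 annotated gene. Of these 46 genes, 3 encode the immunoproteasome subunits, each with 1 probe set, and the other 43 have 80 probe sets. Psme2, the usual partner of Psme1, was left out because its 1 probe set is annotated to Psme2 and Psme2b together. Membership used gene names only and no measured value.

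RNA was measured in tissue holding the pharyngeal arches and the second heart field, taken at E10.5 from embryos of wild-type mice, on an Affymetrix Mouse Genome 430A array. The 5 samples were separate tissue isolates and form 1 group, with no treatment and no second genotype, from 129P2/OlaHsd mice backcrossed to C57BL/6 for 2 generations. Each label started from 10 ng of total RNA, which was amplified before hybridisation. Litters are not given in the labels, so the spread between samples may in part be technical. The p-values rest only on that spread and on limma's trend of variance over many probe sets.

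Median signal per array ran from 28.1 to 32.2 units. The background level, the 95th percentile of the signal over 222 probe sets of 189 genes from families such as odorant receptors, defensins and caseins, was 17.8, 16.2, 18.1, 22.8 and 23.4 in replicates 1 to 5. The excess of a probe set is its log2 signal minus the log2 background level of the same array. It is given as the mean over the 5 arrays ± limma's moderated SE, which also draws on the variance of other probe sets. Signals are mean ± SD with n = 5. A probe set was called above background when limma's one-sided test gave an adjusted p below 0.05. The markers of the labelled tissue were called unevenly. The second heart field list had 2 calls among 6 genes (33.3%), a smaller share than the 53.9% of all genes. By probe set it had 6 of 11 (54.55%), beside 50.87% of all. The arch mesenchyme list had 5 calls among 6 genes (83.3%). Isl1 (1387 ± 223) was called in the first list, and Twist1 (566 ± 85.5) and Crabp1 (2740.3 ± 355) in the second. Nkx2-5 (5.09 ± 3.35) and Hand2 (8.24 ± 6.6) were among the second heart field genes without a call. The tissue was measured whole, and fewer cells of a type and less RNA per cell cannot be told apart. Probe sets differ in how strongly they bind, so the signals of single genes are not set against each other here. Genes are compared by calls and by changes between arrays.

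RefSeq promoters (mouse build GRCm38.p6, 250 bases before to 50 after the start) were found for 38 of the 46 genes. The sequences printed here, shown because the comparison of constitutive and immune subunits turns on these genes, belong to Psmb5 and Psmb6, to their immune counterparts Psmb8 and Psmb9, and to Psme1, an activator known to respond to interferon. They read 5′ to 3′ on the strand of the gene, and capitals mark a match on either strand to 1 of the 4 motifs searched: CCAAT (bound by NF-Y), TGACNNNGC (the core of the antioxidant response element, bound by Nfe2l1 and Nfe2l2), GAAA, any 2 bases and GAAA again (the core of the interferon-stimulated response element) and CCGGAAG (an ETS motif). Matches of different motifs were counted separately, and no motif contains another.
Psmb5, chr14:54617946-54618245, minus strand: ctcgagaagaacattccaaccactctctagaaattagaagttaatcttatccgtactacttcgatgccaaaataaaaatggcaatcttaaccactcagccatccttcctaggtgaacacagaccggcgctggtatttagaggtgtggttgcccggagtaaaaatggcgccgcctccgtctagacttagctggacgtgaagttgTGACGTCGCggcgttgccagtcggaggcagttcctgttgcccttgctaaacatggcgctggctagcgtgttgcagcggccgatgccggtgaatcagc
Psmb6, chr11:70525107-70525406, plus strand: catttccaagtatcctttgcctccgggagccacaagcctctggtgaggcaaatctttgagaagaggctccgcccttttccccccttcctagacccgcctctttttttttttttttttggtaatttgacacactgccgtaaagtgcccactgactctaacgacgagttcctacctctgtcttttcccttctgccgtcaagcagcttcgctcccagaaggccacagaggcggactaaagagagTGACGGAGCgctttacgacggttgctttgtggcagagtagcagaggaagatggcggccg
Psmb8, chr17:34197945-34198244, plus strand: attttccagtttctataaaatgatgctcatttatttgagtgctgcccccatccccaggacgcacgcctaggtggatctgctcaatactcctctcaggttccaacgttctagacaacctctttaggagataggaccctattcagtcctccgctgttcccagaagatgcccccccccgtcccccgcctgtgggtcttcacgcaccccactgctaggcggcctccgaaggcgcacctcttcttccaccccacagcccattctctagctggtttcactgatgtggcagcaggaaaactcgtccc
Psmb9, chr17:34187281-34187580, minus strand: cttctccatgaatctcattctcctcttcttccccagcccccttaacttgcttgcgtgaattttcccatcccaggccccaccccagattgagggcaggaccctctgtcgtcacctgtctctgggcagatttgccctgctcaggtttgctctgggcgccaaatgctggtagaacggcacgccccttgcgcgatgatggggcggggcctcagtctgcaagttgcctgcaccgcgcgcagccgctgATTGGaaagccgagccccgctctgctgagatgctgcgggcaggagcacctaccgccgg
Psme1, chr14:55578244-55578543, plus strand: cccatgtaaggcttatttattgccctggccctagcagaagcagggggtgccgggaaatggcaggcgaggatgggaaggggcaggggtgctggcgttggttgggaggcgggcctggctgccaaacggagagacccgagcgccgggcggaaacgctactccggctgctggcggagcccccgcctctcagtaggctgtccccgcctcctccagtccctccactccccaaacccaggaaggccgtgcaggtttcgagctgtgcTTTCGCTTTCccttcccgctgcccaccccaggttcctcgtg

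Psmb5 and Psmb6 each held 1 antioxidant response core, and Psmb8 and Psmb9 held none. Psmb9 held 1 CCAAT box, and the capitals in Psme1 mark an interferon response core read on the opposite strand. The Psmb9 window shares 275 of its 300 bases with that of Tap1, the peptide transporter gene that is read in the opposite direction (chr17:34187306-34187605). Over the 38 genes, the antioxidant response core was in 6 (15.8%), against 14% of 27025 genes with a promoter entry. The interferon response core was in 5 (13.2%, against 3.99%), the ETS motif in 14 (36.8%, against 9.93%) and CCAAT in 13 (34.2%, against 41.1%). The 5 genes with the interferon response core were Psmb3, Psmd4, Psmd9, Psme1 and Psmg4, so Psmb8, Psmb9 and Psmb10 were not among them. These are matches of letters in a window and were not tested as binding sites.

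Proteasome genes were above background almost throughout. Of the 46 genes, 43 (93.5%) had at least 1 called probe set, beside 53.9% of all 12393 genes. The 3 genes without a called probe set were Psmb8, Psmb9 and Psma8. Of the 83 probe sets, 66 (79.5%) were called, beside 50.9% of the 20380. The median excess of the genes, each taken at its brightest probe set, was 5.20 log2 units, and the median over all genes was 0.85. These medians also depend on how well the probe sets bind. In 65 of the 83 probe sets every array lay above its background level.

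**Figure D1:**
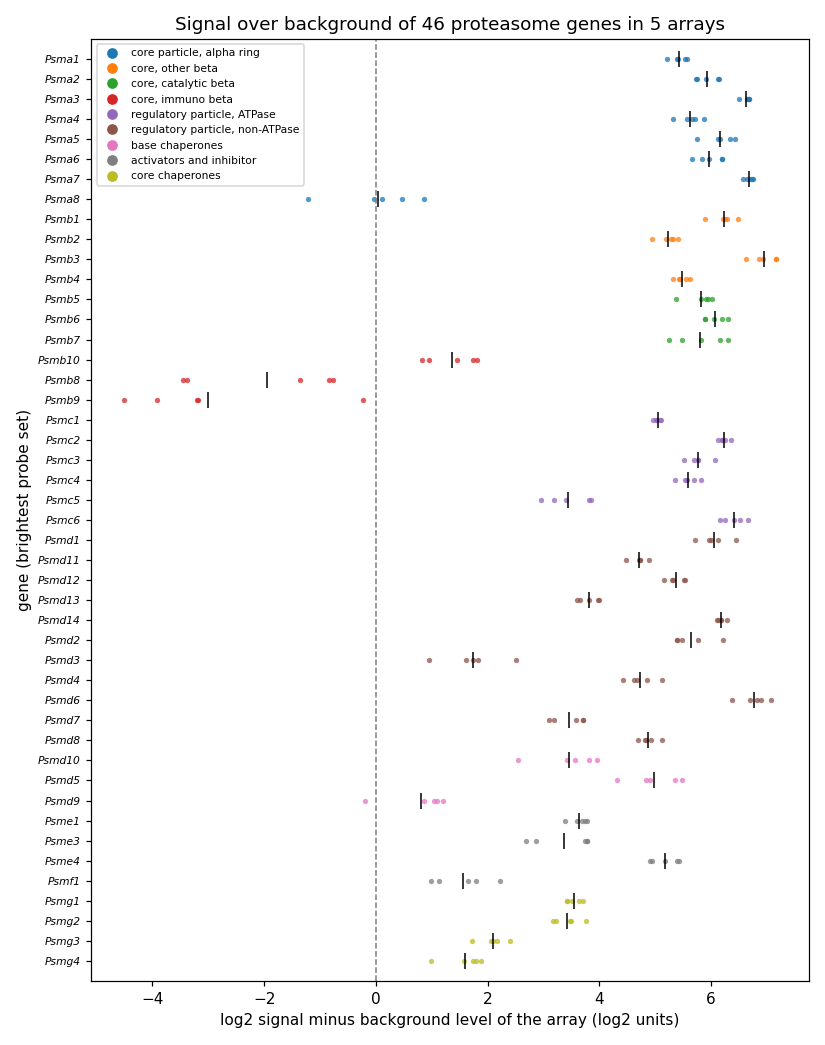
Excess over background (x axis, log2 units) for the brightest probe set of each of 46 proteasome genes (y axis), coloured by role. Points are the 5 arrays, black ticks the means and the dashed line the background level. Psma8, Psmb8 and Psmb9 are the 3 genes not above background, and Psmb10 lies above the line in all 5 arrays. Distances between genes also depend on how well each probe set binds.

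The constitutive catalytic subunits were above background in every array. Psmb5, which carries the chymotrypsin-like site, gave 1077, 1046, 1116, 949 and 1325 in replicates 1 to 5. Its excess was 5.82 ± 0.14 log2 units (adjusted p = 2.58e-27). Psmb6, the caspase-like subunit, gave 1059, 1280.2, 1337, 1353 and 1556, with an excess of 6.07 ± 0.14 (adjusted p = 2.41e-28). Psmb7, the trypsin-like subunit, gave 1004, 1284, 1295, 1019.5 and 884, with an excess of 5.80 ± 0.15 (adjusted p = 2.66e-26). The lowest array differed among them: it was replicate 4 for Psmb5, replicate 1 for Psmb6 and replicate 5 for Psmb7.

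Their immune counterparts gave 1 call among 3 genes. Psmb8, which replaces Psmb5, gave 6.97, 9.01, 10.7, 2.09 and 2.25, below the background level in each array, with an excess of -1.96 ± 0.65. Psmb9, which replaces Psmb6, gave 1.96, 1.07, 1.98, 0.96 and 19.9. All 5 values lay below background, and replicate 5 was the highest, close to the level of 23.4 in that array. Its mean excess was -3.01 ± 0.64. Psmb10, which replaces Psmb7, gave 48.5, 56.7, 32.2, 76.1 and 45.4 and was above the level in all 5 arrays. Its excess of 1.36 ± 0.21 passed the test (adjusted p = 3.23e-07), at the level used here. At a stricter level, which also counts casein kinases and interferon receptors among the background families, its excess was -0.94. None of the 3 immune subunits was called there, while 37 of the other 43 genes still were, beside 29.2% of all genes. The stricter level ran from 72.9 to 114 units. Ifnar1, an interferon receptor gene, gave 225 ± 32 here. A call lost at that level thus does not place a gene at background. A probe set without signal may also bind poorly, so no absence of Psmb8 or Psmb9 transcript follows.

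**Figure D2:**
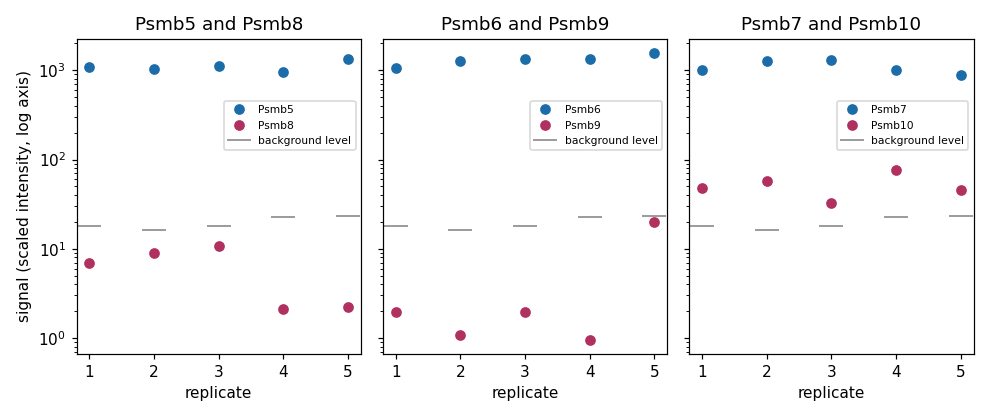
Signal (y axis, scaled intensity, log axis) of each constitutive catalytic subunit and its immune counterpart in replicates 1 to 5 (x axis), with the background level of each array as a grey dash. Psmb5, Psmb6 and Psmb7 lie above the dashes in every array, Psmb10 lies above them with 32.2 to 76.1, and Psmb8 and Psmb9 lie below them. The height between genes is not a ratio of transcripts.

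The immunoproteasome serves antigen presentation. Of 10 measured genes of that pathway, 6 were above background, a share of 60% near the 53.9% of all genes. By probe set the share was lower, with 11 of 30 called (36.67%), beside 50.87% of all. B2m, the light chain of MHC class I (808 ± 129), and Tapbp, which loads peptides (77 ± 21), were called, as was Calr, a chaperone of the endoplasmic reticulum (1273 ± 198). So were Pdia3 (715 ± 134) and Canx (1495 ± 233). The transporter genes Tap1 (3.93 ± 3.07) and Tap2 (3.48 ± 2.32) were not. Of the class I heavy chains, H2-D1 was called in only 1 of its 9 probe sets, at 37.1 ± 7.37 (excess 0.91). None of the 4 probe sets of H2-K1 was called, and its brightest gave 21.3 ± 7.26. The peptide-trimming enzyme gene Erap1 (15.7 ± 9.96) was not called either.

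Of 14 measured interferon response genes, 2 were above background, a share of 14.3% beside the 53.9% of all genes. They were Irf9, a partner of the STAT factors (35.7 ± 9.51), and Ifit2 (33.8 ± 10.6). Neither was called at the 99th percentile of the background families (excesses -0.09 and -0.18) or at the stricter level (-1.46 and -1.55). Irf1, which drives immunoproteasome genes after interferon-gamma, gave 15.8, 15.4, 24.2, 29.2 and 27.2 and was not called (adjusted p = 0.534). Of 7 receptor and kinase genes of interferon signalling, 5 were called (71.4%), among them the receptor Ifnar1 (225 ± 32) and the kinase Jak2 (388 ± 41.6). Jak1 (118 ± 30.7) and Ifnar2 (35 ± 11.7) were called too. Of the interferon-gamma receptor genes, Ifngr1 was not called (13 ± 6.14). Ifngr2 was called in 1 of 2 probe sets at 32 ± 14.8 (excess 0.61). The kinase gene Tyk2 was not called (24.5 ± 8.21).

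Leukocytes are the cells best known for the immune subunits. Of 15 measured leukocyte markers, 4 were above background (26.7%, beside 53.9% of all genes), namely Lcp1 (407 ± 51.4), Coro1a (166 ± 22.8), C1qb (61.2 ± 23.2) and Cd53 (55.9 ± 11.7). Ptprc (13.6 ± 6.56), Cd52 (17.5 ± 6.04) and Tyrobp (21.8 ± 5.17) were among the markers not called. The summed signal of the 15 genes ran from 632 in replicate 4 to 983 in replicate 5. Lcp1 alone gave 321 and 416 in those arrays. The highest Psmb10 signal was in replicate 4 (76.1). The part of leukocytes in the Psmb10 signal was not tested.

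All 7 alpha-ring genes of the standard core were above background, and the testis subunit was not. Psma7 gave 1698, 1688, 1965, 2276 and 2482, with an excess of 6.68 ± 0.13 (adjusted p = 1.92e-30). Replicates 4 and 5 were the highest here. Psma8, which takes the place of Psma7 in germ cells, gave 32.3, 6.93, 25, 22.3 and 25.4. It was above the level in 3 arrays, with a mean excess of 0.04 ± 0.30 (adjusted p = 0.808). None of 7 measured germ cell markers was called, beside 53.9% of all genes. The other ring genes, Psma1 to Psma6, had mean signals from 844 ± 149.8 for Psma1 to 1956 ± 366 for Psma3 at their brightest probe sets.

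The 4 beta-ring genes without a catalytic site, Psmb1 to Psmb4, were all called. Psmb3 gave 2059.9, 2315, 2219.7, 2239 and 3354 with an excess of 6.95 ± 0.13 (adjusted p = 9.34e-31). Replicate 5 stood apart from the other 4 in it. Psmb1 (1479 ± 284), Psmb2 (740.4 ± 143) and Psmb4 (869.9 ± 94.9) were called with excesses of 6.23, 5.23 and 5.48.

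In the regulatory particle, all 6 ATPase genes were above background. These subunits form the ring that unfolds substrates and threads them into the core. Psmc6 gave 1516, 1648, 1672, 1632 and 1780.4, with an excess of 6.41 ± 0.13 (adjusted p = 2.73e-29) and little spread between arrays (SD 0.08 log2 units). Psmc2 (1471 ± 231), Psmc3 (1059.6 ± 95.6), Psmc4 (954 ± 187) and Psmc1 (651 ± 118) were called as well. Psmc5, at 215 ± 40, had an excess of 3.44 ± 0.17.

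All 11 non-ATPase genes were also above background. Psmd6, a lid subunit, gave 2013, 1347, 2171, 3070.2 and 2428, with an excess of 6.78 ± 0.13 (adjusted p = 3.92e-30). Its highest and lowest arrays were replicates 4 and 2. Psmd14, the enzyme that removes ubiquitin chains, gave 1416 ± 228, and its lid partner Psmd7 gave 218 ± 51.1. The ubiquitin receptor Psmd4 gave 535 ± 159, and the large base scaffolds Psmd1 and Psmd2 gave 1289.9 ± 114 and 986 ± 159.7. Psmd3, another lid subunit, gave 102, 57.3, 35.3, 75.6 and 72 in replicates 1 to 5, with an excess of 1.73 ± 0.21 (adjusted p = 2.38e-09). It was not called at the stricter level (excess -0.56). The other lid genes Psmd8 (580.1 ± 101), Psmd11 (511 ± 63.7), Psmd12 (806 ± 90) and Psmd13 (279 ± 64.3) were called.

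The assembly factors Psmg1 to Psmg4 and Psmd5, Psmd9 and Psmd10 were all above background. Psmg1 to Psmg4 encode the chaperones that build the core particle. Psmg1 gave 204, 212, 227, 244 and 250.0 (excess 3.54 ± 0.16) and Psmg2 gave 198, 220.3, 163, 214 and 262 (excess 3.43 ± 0.17). Psmg3 gave 75.8, 86, 59.8, 95.2 and 105 (excess 2.09 ± 0.18) and Psmg4 gave 61.8, 59.6, 60.3, 45.1 and 69.5 (excess 1.59 ± 0.20). Each was above background, and Psmg3 and Psmg4 were not called at the stricter level (excesses -0.21 and -0.70).

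Psmd5, Psmd9 and Psmd10 encode chaperones of the regulatory particle's base. Psmd5 gave 356, 718, 744, 682 and 672, with replicate 1 well below the other 4. Psmd10, also called gankyrin, gave 103, 226, 215, 244 and 363, likewise lowest in replicate 1. It lies on the X chromosome, and replicate 4 was the only array with a high Xist signal (916, 26.3 or less elsewhere). The Psmd10 signal of replicate 4 lay within the range of the others. Psmd9 gave 38, 37.3, 15.8, 41.3 and 48.3 and passed with an excess of 0.80 ± 0.23 (adjusted p = 0.00184). It was not above background at the 99th percentile of the background families (excess -0.12) and at the stricter level (excess -1.49).

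Other regulators of the core were called. Psme4, an activator linked to histone turnover, gave 769.7, 683, 652, 686 and 724 (excess 5.17 ± 0.15) and was the most even of this group (SD 0.09). Psme3, the nuclear activator, gave 245, 216, 132, 312 and 151 (excess 3.37 ± 0.19). Replicates 3 and 5 were low in it. Psme1, the interferon-responsive activator, gave 238, 221, 219.9, 238 and 301 (excess 3.64 ± 0.16, adjusted p = 5.14e-20), and was above background in all 5 arrays. Psmf1, an inhibitor of the core in vitro, gave 61.4, 76, 39.8, 71.7 and 46.6 (excess 1.56 ± 0.20), and its excess at the stricter level was -0.74.

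Other genes of the pathway without a Psm symbol were above background in all cases measured. This held for 10 of 10 proteasome-associated genes, 4 of 4 ubiquitin supply genes and 8 of 8 substrate delivery genes. It also held for 7 of 7 genes that control proteasome transcription, beside 53.9% of all genes. The lists held 13, 11, 11 and 8 genes in that order, and the rest had no probe set annotated to that gene alone under the listed symbol. The lowest excess among the transcription control genes was 1.03 log2 units. Pomp, which matures the core particle, gave 1079, 1589, 1557, 1640.1 and 1633, with replicate 1 the lowest, as in Psmd5 and Psmd10. The small regulatory subunit gene Sem1 gave 1603 ± 179. The deubiquitinases Usp14 and Uchl5 gave 269 ± 88 and 539.9 ± 87.3. Among enzymes that attach ubiquitin, Ube2d3 (2406 ± 215) and Ube2n (2049 ± 128) were called. The segregase gene Vcp gave 914 ± 198 and the shuttle gene Rad23b gave 830.1 ± 310.5.

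Nfe2l1, the factor that raises proteasome genes when the proteasome is inhibited, gave 209, 233, 180.3, 177 and 144 (excess 3.26 ± 0.18). Its relative Nfe2l2, which responds to oxidative stress, gave 97.4 ± 14.5 and was not called at the stricter level (excess 0.02). The NF-Y subunits Nfyb (1940.5 ± 212) and Nfyc (1386 ± 24) were called.

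Probe sets of the same gene often differed. Among the 21 genes measured by several probe sets, 10 included 1 or more without a call. For Psma1 the excesses ran from 5.42 down to -0.75, with 1 of 3 probe sets called, and for Psmc1 from 5.05 to -1.38, with 1 of 2. In Psmd7 1 of 3 was called (3.46 to -2.71) and in Psme3 2 of 3 (3.37 to -2.70). Psmf1 rested on 1 of 4 probe sets. At the other end, the 2 probe sets of Psmc2 gave 6.23 and 6.18. Psmb8, Psmb9 and Psma8 have 1 probe set each.

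**Figure D3:**
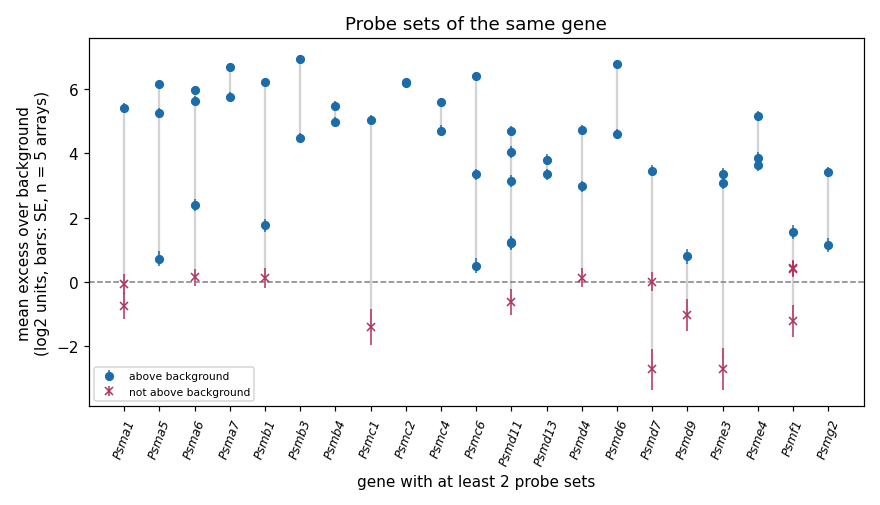
Mean excess over background in 5 arrays (y axis, log2 units, bars limma's moderated SE) of every probe set of the 21 proteasome genes with 2 or more (x axis). Circles are above background and crosses are not, and grey lines join probe sets of the same gene. Psma1 spans 5.42 to -0.75, and the 2 circles of Psmc2 nearly coincide.

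Variability between arrays was tested for the 73 member probe sets with a mean excess above 0, and 10 did not pass that filter. None varied more than probe sets of like signal at an adjusted p below 0.05 (F test against limma's trend of variance). Without adjustment 2 passed at 0.05. In Psmd10 the variance was 4.83 times that of the trend (adjusted p = 0.781), and in the brighter probe set of Psmd6 it was 4.07 times (adjusted p = 0.848). Over all 11689 probe sets tested with 1 gene, 0.171% passed with adjustment and 5.16% without, so the share of members, 2 of 73, was no larger than in the background. The median SD of the members was 0.28 log2 units and that of all probe sets above 0 was 0.32. Among probe sets with a mean excess above 4 the members were not lower, with 0.240 beside 0.235 for all.

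The largest SDs among members with a mean excess above 0 belonged to dim probe sets. They were Psma8 (SD 0.87), the second probe set of Psmd7 (SD 0.78, signals 8.34 to 36.4) and the third of Psmb1 (SD 0.73, signals 13.5 to 37.1). None of these 3 was called above background. Among called probe sets Psmd10 (SD 0.66), Psmd9 (SD 0.63) and Psmd3 (SD 0.57) had the largest SDs.

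Although no single member passed, the members leaned the same way between arrays. In each array the log2 signal of a probe set was taken minus its own mean over the 5 arrays. The median over the 73 members was -0.11, -0.03, -0.02, 0.17 and 0.13 in replicates 1 to 5, a range of 0.28. Over all 12749 probe sets with a mean excess above 0 it was -0.01, 0.01, 0.00, 0.01 and 0.04. Replicates 4 and 5 were high and replicate 1 was low. After quantile normalization the range was 0.28, with 0.15 and 0.10 in replicates 4 and 5. This is a description of 5 arrays in 1 group, with no test.

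Bright members were also taken alone, by a cut chosen after the data were seen, and their medians had a range of 0.31. With the brightest probe set of each gene the range was 0.37. Of the 38 with a mean excess above 4, 27 (71.1%) were above their own mean in replicate 4 and 31 (81.6%) in replicate 5, against 8 (21.1%) in replicate 1 and 11 (28.9%) in replicate 2. In all 3298 probe sets as bright the shares lay between 47.4% and 53.4%. The highest array was replicate 5 in 17 of the 38 (44.7%), against 23.3% of all probe sets as bright, and replicate 4 in 10 (26.3%), near the 23.8% of all. The medians of the 19 core probe sets among them were -0.17, -0.07, 0.03, 0.19 and 0.14 in replicates 1 to 5. Those of the 17 regulatory probe sets were -0.12, -0.10, -0.10, 0.17 and 0.19, so both particles were low in replicate 1 and high in replicates 4 and 5, and they differed in sign in replicate 3.

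**Figure D4:**
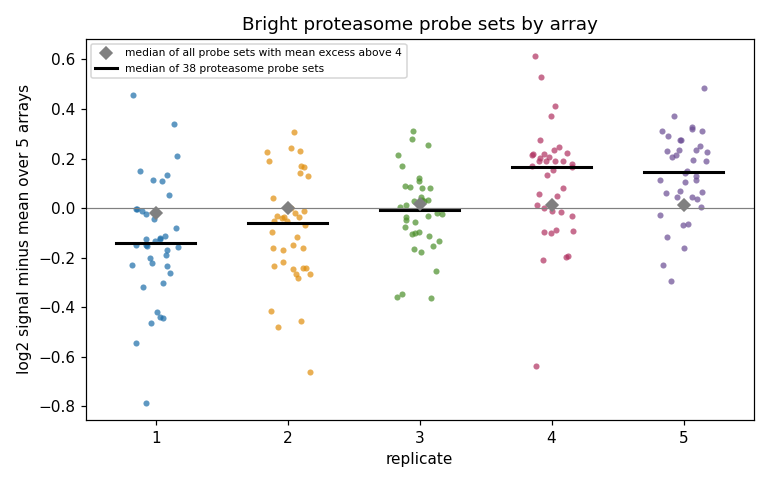
Log2 signal minus the mean over 5 arrays (y axis, log2 units) of the 38 proteasome probe sets with a mean excess above 4, by replicate (x axis). Black bars are medians of these probe sets and grey diamonds the medians of all probe sets as bright. The bars lie at -0.14 in replicate 1 and at 0.17 and 0.15 in replicates 4 and 5, while the diamonds stay between -0.02 and 0.02.

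Members did not all follow. The 10 ATPase probe sets that passed the filter were high in replicate 5 (median 0.20, 9 of 10 above their own mean) and not in replicate 4 (median -0.01, 4 of 10). Of the 3 catalytic subunits, 1 was above its own mean in replicate 4 (median -0.09). Psmb7 was highest in replicates 2 and 3 and lowest in replicate 5. Of the 9 probe sets of activators and the inhibitor that passed the filter, 3 were above their own mean in replicate 4, and the median there was -0.03. Probe sets of 1 gene could also part. The brighter probe set of Psmc4 gave 844, 916, 738, 1056 and 1217, lowest in replicate 3, and the other gave 645, 561, 550.2, 327 and 526, lowest in replicate 4. For Psma5 the brightest gave 954, 1158, 1565, 1850.0 and 1629 and the second 806, 667, 792, 788 and 688, so the high signal of replicate 4 appeared in the first and not in the second.

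The background level also differed between arrays in the same direction, with 22.8 and 23.4 in replicates 4 and 5, while the other arrays had 16.2 to 18.1. Replicate 4 also stood apart in sex-linked genes, with Xist at 916 (26.3 or less elsewhere) and the Y-linked gene Eif2s3y at 20.1 (769 to 968 elsewhere). The summed signal of 5 red cell genes was lowest in replicate 4 (8418) and highest in replicate 5 (16825). The summed signal of 6 arch mesenchyme genes was highest in replicate 4 (9322), where Crabp2 gave 5119.7 (3072 to 3768 elsewhere) while Prrx1 was at its lowest (803, against 1003 to 1398). The summed signal of 6 second heart field genes was lowest in replicate 4 (1398) and is mostly Isl1 (1095 there), while Mef2c, the other called gene of that list, was highest in replicate 4 (249.5, against 183 to 221). The markers of one tissue thus did not move together. The parts of tissue composition, sex and background level in the lean of the members were not tested.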

How the data were processed

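The deposited values are linear intensity values, with 1 scaled signal for each probe set in each array. The authors used GCOS, per the submitters' processing notes, and its version, algorithm and settings are not given in the sources used here. After trimming 2% at each end, the mean signal was 150.1 in every array. Of 22690 probe sets, 64 controls were left out, 691 carried several genes and 1555 none in the annotation used. Symbols came from the platform annotation, updated by Entrez identifier with a RefSeq table (assembly GRCm38.p6), which matched 20351 probe sets.

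Signals under 1 were set to 1 before log2 was taken, and the background level of each array was subtracted. Detection was fitted in limma (version 3.58.1, R 4.3.3) as an intercept model with lmFit and eBayes (trend and robust) over all 22626 probe sets, one-sided, with Benjamini-Hochberg adjustment. Variability used an F test of each variance against limma's robust trend. A gene was called if any of its probe sets was. Both steps were tested on simulated data, drawn as independent normal values. Shifts shared by the probe sets of an array and error in its background level were not simulated. The number of arrays, 5, limits the precision.

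The members and gene lists, and the rule for naming genes, were chosen with earlier results of these data known. All members could be named, with values per array for the catalytic pairs, Psma7, Psma8, the Psme, Psmf and Psmg genes, Psmd10, the member with the highest excess of each role, members without a call and the 3 with the largest SD; genes of the companion lists could be named too. The promoter motifs, Psmd3, Psmd5, Psmd9, Psmc4 and Psma5 per array and the brightness cut of 4 were chosen after values were seen. The background families leave out the casein kinases and interferon receptors. Alternatives changed the background families and percentile (90 and 99), the probe set per gene, the normalization, the floor (log2 of signal plus 16), the limma options and the arrays.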

Additional observations from a re-analysis of the deposited data

Results flagged for a closer look

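Of 127 values tested for a sample far from the other 4 (the 83 member probe sets, 43 of the other named genes and the median of the members), 12 stood apart, 5 high and 7 low. Chance alone gives about 1 in 20 such groups. No explanation was tested for any of them.

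Among the members, replicate 5 was high in Psmb3 (3354, against 2060 to 2315), in Psme1 (301, against 219.9 to 238) and in Psmb9 (19.9, against 0.96 to 1.98, all below background). It was low in a dimmer probe set of Psma6 (84, against 103 to 109). Psmd5 was low in replicate 1 (356, against 672 to 744), Psma8 in replicate 2 (6.93, against 22.3 to 32.3) and Psmd9 in replicate 3 (15.8, against 37.3 to 48.3).

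Among the other genes so tested, Pomp was low in replicate 1 (1079, against 1557 to 1640.1) and C1qb in replicate 4 (22.6, against 62.3 to 84.9). Uchl5 was high in replicate 4 (694, against 483 to 522). The Y-linked gene Eif2s3y was low in replicate 4 (20.1, against 769 to 968). The interferon response gene Ifit1 was high in replicate 5 (19.3, against 0.92 to 1.62), the array in which Psmb9 was also highest; both signals lie below the background level of 23.4 there.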

How the results depend on the processing

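Of the 46 genes, 43 were called at the main level and in each fit without 1 replicate, 42 at the 99th percentile and 37 at the stricter level; 65 to 67 of 83 probe sets were called without 1 replicate. With plain probe sets alone, which leaves 51 member probe sets of 38 genes, 40 probe sets were called. Without limma's trend and robust options, 43 genes and 66 probe sets were called. The adjusted p-values of limma's one-sided test were then larger. They were 3.49e-07 for Psmb5 (2.58e-27 in the main fit), 0.000806 for Psmb10 (3.23e-07) and 0.0185 for Psmd9 (0.00184). At the stricter level none of Psmb8, Psmb9 and Psmb10 was called (0 of 3), and without any 1 replicate 1 of 3 was, with 42 of the 43 other genes. No member varied past the threshold in any setting (0 called, 1 to 4 at an unadjusted p below 0.05). The range of the array medians lay between 0.18 and 0.29 without 1 replicate (0.18 without replicate 1) and was 0.37 with the brightest probe set of each gene.

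The stricter level is higher by construction. Its added families include interferon receptors, of which some have signal here, so a call lost there does not place a gene at background. Among members called at the main level, the excess turned negative there for Psmb10 (-0.94), Psmd3 (-0.56), Psmd9 (-1.49), Psmf1 (-0.74), Psmg3 (-0.21) and Psmg4 (-0.70). Not every other named gene was followed across settings. Among those followed and called at the main level, it did so for Tapbp (-0.36), H2-D1 (-1.39), Irf9 (-1.46), Ifit2 (-1.55), Cd53 (-0.80) and C1qb (-0.77). At the 99th percentile it did so for Psmd9 (-0.12), H2-D1 (-0.014), Irf9 (-0.087) and Ifit2 (-0.18). Nfe2l2 and Eif2s3y kept a positive excess but lost their call at the stricter level, as Eif2s3y did without replicate 2, 3 or 5. Genes without a call that lie near the level could change sign and were still not called: Psma8 had -2.26 at the stricter level, -0.89 at the 99th percentile and -0.17 without replicate 1, and H2-K1, Irf1 and Tyrobp also turned negative at both levels, while Cd52 turned positive at the 90th percentile (0.06). No paired analysis was possible because there is only 1 group. The arrays carry no present or absent calls here, so members near the background level, such as Psma8 and Psmd9, are limited by where that level is set.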
